A study of Mus musculus with 12 samples.

Results

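The genes described here are 10 immediate early genes of the mouse, namely Fos, Fosb, Jun, Junb, Egr1, Egr2, Ier2, Dusp1, Zfp36 and Nr4a1. They were taken by gene symbol from the annotation of the arrays. Each was read by 1 probe, so they make up 10 of the 21738 probes and 10 of the 15081 genes with a probe of a single symbol. RNA came from neurospheres, which are balls of dividing neural progenitors kept in suspension, started from mouse cortex of gestational day 12.5 and fed basic FGF, EGF and LIF without serum. There were 4 groups of 3 arrays. Controls were kept in growth medium alone for 24 h or 108 h, and the prominin groups of the same times also received an adenovirus expressing CD133/R-prominin1, a membrane glycoprotein. The series' design text speaks of GFP or prominin positive neurospheres, whereas the treatment text of the controls names no virus, so effects of the virus and of prominin-1 cannot be told apart. For prominin samples titled 24 h the treatment text names 108 h instead, and the title was followed. All cultures shared the growth factors, which themselves can induce these genes, and no group without them was among the arrays. Whether replicates came from separate cultures is not in the labels, so a p-value here reflects only how far these arrays spread, which may be technical.

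Immediate early genes are transcribed within minutes of a growth factor, cytokine or stress signal, with no need for new protein synthesis, and their mRNAs are short-lived. In neural progenitors the signal runs from FGF and EGF receptors through the ERK kinase pathway to the factors SRF and its ETS partners, and through CREB to cAMP response elements. Some of the products are transcription factors: FOS and JUN proteins pair to form AP-1, the EGR proteins are zinc finger factors, and NR4A1 is an orphan nuclear receptor. Others end the response: DUSP1 dephosphorylates MAP kinases and ZFP36 promotes decay of mRNAs with AU-rich elements. IER2 is a nuclear protein of the same early wave.

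Each array set a neurosphere RNA, labelled with Cy5, against a Cy3-labelled reference RNA from whole C57/Bl6 embryos at gestational day 12. The values were read as log2 of sample over reference. The 4532 probes with a value on every array set the zero: their median was subtracted on each array, and every value below is a log2 ratio relative to that median probe unless it is called deposited. The median of all probes measured on an array then lay above this zero, at 0.22 to 1.21. Before centring, the array medians of these 4532 probes ran from −2.59 to −0.84. At 24 h they were −2.04 to −1.47 in controls and −1.38 to −0.99 in prominin cultures. At 108 h they were −1.32 to −0.84 in controls and −2.59 to −1.78 in prominin cultures. The subtracted median thus separated control from prominin arrays at both times, in opposite directions. Exact zeros and a top value of 16.61 recur many times. The sources used here do not say what they mean, and they were taken for codes and set missing, after which a 24 h array kept 10404 to 14465 probes and a 108 h array 15944 to 16598. Markers of neural stem cells and radial glia lay above 0 on every array (list median 1.92 to 4.55 over the arrays), as did astrocyte markers (3.45 to 7.14) and those of the oligodendrocyte lineage (1.14 to 5.27), whereas neuronal, endothelial, fibroblast and erythroid lists lay below 0 on every array. The microglia and leukocyte list lay between −1.54 and 1.56. In bulk RNA, fewer cells of a type and less RNA per cell cannot be told apart.

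Of the 120 values of the immediate early genes, 99 were measured, 20 were exact zeros and 1 was the top code. Fos, Jun and Egr2 were measured on all 12 arrays, Dusp1 and Zfp36 on 11, Junb on 10, Nr4a1 and Ier2 on 9, Egr1 on 8 and Fosb on 5. Values that equal log2 of a ratio of whole numbers up to 20 are called whole-number ratios below. They can come from dim spots, but no spot brightness was among the values used. They made up 24 of the 48 measured at 24 h (50.0%) but 1 of the 51 at 108 h (2.0%). All 4 measured values of Junb at 24 h and all 4 of Nr4a1 were of this kind, against none of Egr2. Exact zeros were given no level here, which is an assumption, since a true ratio of 1 would also be written as 0.

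**Figure D1:**
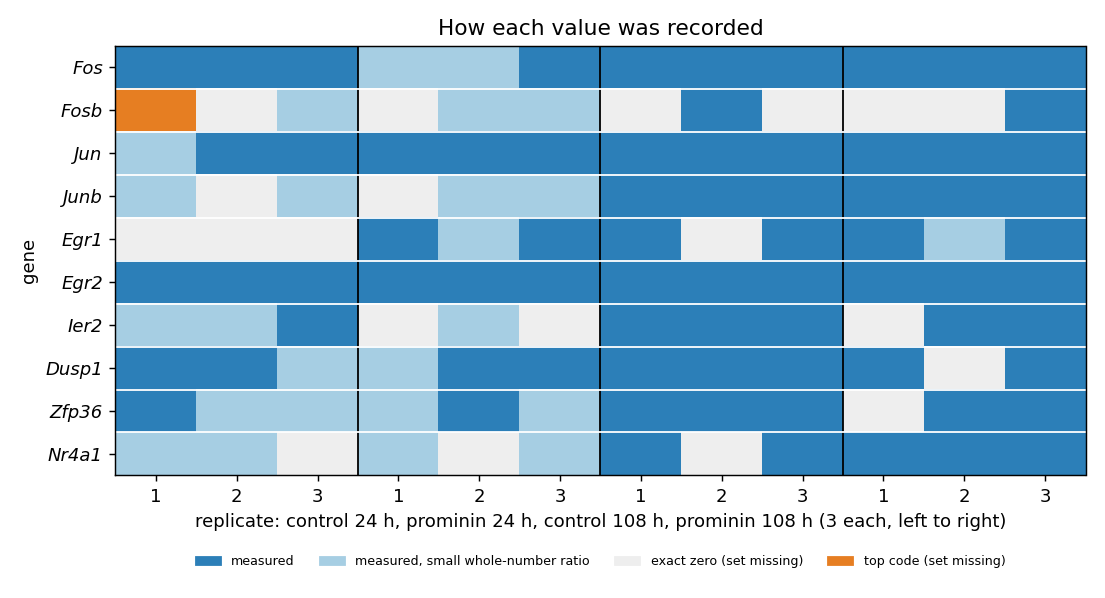
Each cell is 1 immediate early gene (rows) on 1 array (columns, 3 replicates in each of the 4 groups), coloured by how its value was recorded in the deposited table. Exact zeros fill all 3 cells of Egr1 in the 24 h controls, and small whole-number ratios lie almost all at 24 h (24 of 25).

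Upstream sequence of the gene with the smallest p in the 24 h comparison (Fos), of the gene with the highest ratios (Egr2) and of the one with the lowest (Dusp1) is shown because these genes are known targets of the signals above. Sequences are from RefSeq, build GRCm38.p6, written 5′ to 3′ on the strand of the gene. For Fos (chr12:85473640-85473889, + strand) and Dusp1 (chr17:26508473-26508722, − strand) the 250 bases before the start site are printed. For Egr2 (chr10:67537792-67537821, + strand) 30 bases are printed from 1 of its 5 listed windows. Capitals mark CArG boxes, the binding motif of SRF, CRE cores (TGACG), EGR sites (GCGNGGGCG) and TATA boxes (TATAAA), searched on both strands.
Fos: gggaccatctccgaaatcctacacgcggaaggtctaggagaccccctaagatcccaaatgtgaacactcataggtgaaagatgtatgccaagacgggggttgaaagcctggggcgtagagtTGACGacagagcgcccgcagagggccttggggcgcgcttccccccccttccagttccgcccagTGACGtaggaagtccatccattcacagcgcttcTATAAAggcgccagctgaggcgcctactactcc
Egr2: tcagtCCATATATGGgcagcgaCGTCAcgg
Dusp1: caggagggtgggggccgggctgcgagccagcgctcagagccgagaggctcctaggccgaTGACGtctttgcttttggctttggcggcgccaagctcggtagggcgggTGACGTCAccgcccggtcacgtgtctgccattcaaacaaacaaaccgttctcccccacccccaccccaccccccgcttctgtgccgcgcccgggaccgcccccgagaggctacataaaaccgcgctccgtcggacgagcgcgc
Fos carried a TATA box beginning at position −33 from its start and CRE cores beginning at −129 and −66. Egr2 carried a CArG box with a CRE core just after it, and Dusp1 a full CRE (TGACGTCA), which itself contains the core on both strands.

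Windows were found for 8 of the 10 genes, not for Egr1 and Ier2, and motifs were looked for in their 250 upstream bases. A CRE core was present in 6 of the 8 (Fos, Fosb, Junb, Egr2, Dusp1 and Nr4a1), beside 19.8% of all 27025 genes with a window. CArG boxes were present in 2 (Egr2 and Zfp36; 1.62% of all genes), EGR sites in 3 (Fosb, Zfp36 and Nr4a1; 5.33%) and SP1 boxes (GGGCGG) in 7 (35.4%). An AP-1 site of the form TGANTCA was present in none of the 8 (7.82% of all genes). Longer forms were not searched, and the Jun window holds a similar, longer stretch (TGACATCA) that this pattern does not match. These are matches of letters in a short window, and Egr2 had 5 windows, which gave it more room for a match. Sequence outside these bases was not searched. A gene without a match here, such as Fos for the CArG box, may carry the site elsewhere.

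Fos, Jun, Junb, Egr1 and Egr2 lay above the median probe on every array that measured them. The lowest of these values, 0.20 for Egr1 in prominin 108 h replicate 2, stood at percentile 45.0 of all probes measured on that array. Dusp1 lay below it on 10 of 11 arrays, Zfp36 on 9 of 11, Ier2 on 8 of 9 and Nr4a1 on 5 of 9. Egr2, which encodes a factor known for hindbrain patterning and myelination, had the highest ratios. It lay at 8.84, 9.35 and 7.27 in 24 h controls, 7.15, 8.75 and 7.21 in 24 h prominin cultures, 8.40, 6.29 and 5.72 in 108 h controls and 9.39, 8.30 and 5.10 in 108 h prominin cultures. Its mean of 7.65 ± 1.42 (SD, n = 12) ranked number 10 of the 4532 probes measured on every array, and on each array it stood at or above percentile 98.0. All 4 groups overlapped, in the order 24 h controls (8.49), 24 h prominin (7.70), 108 h prominin (7.60) and 108 h controls (6.80), with no neighbours apart beyond their SD of 0.91 to 2.23.

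Fos, the prototype of the class, averaged 4.44 ± 1.27 (SD, n = 12) and ranked number 68 of the same 4532 probes. Its deposited ratio was above 0, that is above the embryo reference, on 12 of 12 arrays. Jun, its main AP-1 partner, averaged 2.67 ± 0.64 (SD, n = 12; rank 219) and had a deposited ratio above the reference on 11 of 12 arrays. The spread of Jun between replicates was small, with a within-group SD of 0.50 beside a median of 1.19 over 9155 probes. Ranks and centred ratios place each gene's ratio to the embryo relative to that of the median probe. They do not say which mRNA was more abundant. The array medians lay below 0, so deposited ratios were smaller: Jun in control 24 h replicate 1 had 0.138 deposited and 2.18 centred.

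Junb, a JUN protein with weaker activating capacity, averaged 2.51 ± 1.17 (SD, n = 10) and lay above the median probe on 10 of 10 arrays. Only 6 of those 10 had a deposited ratio above the reference. Fosb, a close relative of Fos, had 5 measured values: 0.47 in 1 control array at 24 h, 1.55 and 1.79 in prominin cultures at 24 h, 2.39 in 1 control array at 108 h and −3.92 in 1 prominin array at 108 h. It also held the only top code of the set, in control 24 h replicate 1. With 1 value in most groups it did not enter the tests below. A fit that asked for only 1 value per group put its prominin difference at 108 h, which then rests on 1 array a side, at −6.32 (SE 1.58, limma adjusted p = 0.691).

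Egr1, the zinc finger factor that is the usual readout of ERK activity, was measured on 8 arrays and lay above the median probe on all 8. It lay at 4.59, 3.01 and 6.57 in 24 h prominin cultures, and all 3 of the 24 h controls held an exact zero. At 108 h it lay at 1.62 and 3.73 in 2 control arrays, with a zero on the third, and at 2.88, 0.20 and 3.28 in prominin cultures. Zeros throughout the 24 h controls with values throughout the 24 h prominin arrays were seen for 105 of 21738 probes (0.48%), and the opposite for 102 (0.47%). With zeros taken for missing, Egr1 had no value in the 24 h controls, so its difference at 24 h could not be computed. With zeros kept as ratios of 1, the difference was 3.20 (SE 1.14, limma adjusted p = 0.999), which did not pass.

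Nr4a1 lay near the median probe, at 1.04 and 0.02 in 24 h controls, −0.21 and 2.21 in 24 h prominin cultures, −0.40 and −0.54 in 108 h controls and 3.09, −1.38 and −3.14 in 108 h prominin cultures. The last group spanned more than all the others together. Ier2 lay below the median probe on 8 of 9 arrays. Its exception was 3.83 in control 108 h replicate 2, beside −5.42 and −1.17 in the other control arrays at 108 h, and its other values ran from −2.43 to −0.78. With 1 measured value in 24 h prominin cultures, Ier2 did not enter the tests below, and the fit that asked for only 1 value per group put its prominin difference at 0.59 (SE 2.77) at 24 h and −0.47 (SE 2.19) at 108 h.

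Zfp36 lay at −0.88, −1.57 and 0.56 in 24 h controls, 0.57, −1.26 and −0.60 in 24 h prominin cultures, −0.61, −1.58 and −1.25 in 108 h controls and −1.39 and −0.29 in 108 h prominin cultures. Its deposited ratio was below the embryo reference on all 11 arrays that measured it. Dusp1 lay lowest, at −2.81, −2.81 and −1.53 in 24 h controls, −2.32, −3.49 and −2.36 in 108 h controls and −1.31 and −2.79 in 108 h prominin cultures. The 24 h prominin arrays gave 4.55, −2.64 and −5.09, the widest spread of the gene, and the highest of these was a whole-number ratio. The deposited ratio of Dusp1 was below the reference on 10 of 11 arrays.

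**Figure D2:**
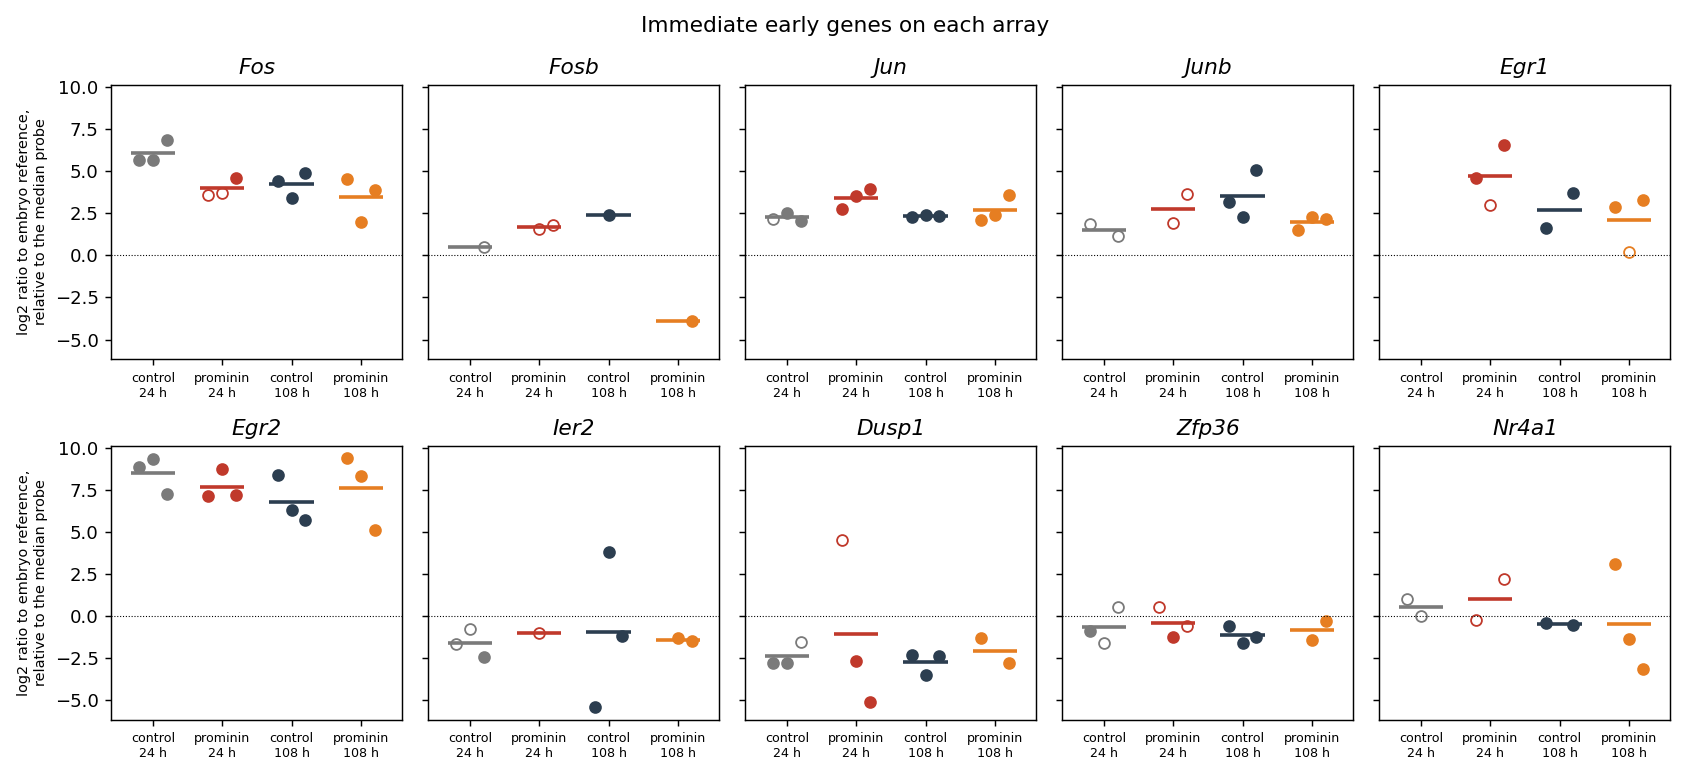
Log2 ratio to the embryo reference relative to the median probe (vertical axis) for each immediate early gene in the 4 groups, with 1 point per array and a bar at the group mean; open points are small whole-number ratios, and missing values are not drawn. Egr2 lies between 5.10 and 9.39 on every array, Fos between 1.96 and 6.84, and Dusp1 below 0 on all arrays but 1.

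Prominin and control cultures at 24 h were compared to ask which genes differed after short culture. Fos lay at 5.69, 5.69 and 6.84 in controls and at 3.60, 3.72 and 4.62 in prominin cultures. The groups did not overlap, and the highest prominin value lay below the lowest control value. The difference was −2.09 (SE 0.76, 95% interval −3.75 to −0.43, limma adjusted p = 0.998), which did not pass the test. It ranked number 139 of 9155 probes by unadjusted p (0.018 by limma). Over 23 alternatives of the processing it ran from −2.41 to −1.41 (limma adjusted p 0.687 to 1.00), and the prominin values of replicates 1 and 2 were whole-number ratios.

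Jun and Junb lay on the other side. Jun was at 2.18, 2.53 and 2.07 in controls and at 2.78, 3.51 and 3.92 in prominin cultures, so every prominin array was above every control array. Its difference was 1.14 (SE 0.57, 95% interval −0.11 to 2.40, limma adjusted p = 0.998). Junb was at 1.87 and 1.15 in controls and at 1.90 and 3.65 in prominin cultures, also without overlap but by a margin within the replicate spread. Its difference was 1.27 (SE 1.02, limma adjusted p = 0.998), and all 4 values were whole-number ratios.

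The other tested genes overlapped between the groups at 24 h. Egr2 differed by −0.78 (SE 1.12), Nr4a1 by 0.47 (SE 1.81) and Zfp36 by 0.20 (SE 0.75). Dusp1 differed by 1.33 (SE 1.91), and by −1.47 without prominin 24 h replicate 1. Zfp36 also turned without that array (−0.29), and without control 24 h replicate 2 (−0.26). Fos, Jun and Junb kept their signs under every alternative that could be run for them. For Junb no array that measured it at 24 h could be left out, since the fit needs 2 values per group. Its range with 1 array left out (1.27 to 1.28) thus does not show whether its sign holds without those arrays. Neither Fos nor Junb could be fitted with whole-number ratios set missing.

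Among the 7 tested genes 5 were higher and 2 lower in prominin cultures at 24 h, with a median of 0.47 beside −0.10 over all 9155 probes. This median was −0.39 without prominin 24 h replicate 1, where Nr4a1 also left the fit for want of values. By limma 0 of the 7 passed, as did 0 of 9155 probes (0%), with 419 probes (4.58%) at an unadjusted p under 0.05. Non-overlapping groups were seen for 3 of the 7, beside 16.5% of all probes. Junb, among the 3, had 2 values in each group, and fewer values separate more easily. The share over all probes mixes probes with 2 and with 3 values in a group. With 3 arrays a group, the median SE of a probe was 0.99 on the log2 scale, and the number of arrays limits the precision.

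At 108 h the same comparison was made after longer culture. Fos lay at 4.40, 3.44 and 4.88 in controls and at 4.55, 1.96 and 3.90 in prominin cultures. The difference was −0.77 (SE 0.76, 95% interval −2.43 to 0.89, limma adjusted p = 0.876). The groups overlapped, and without prominin 108 h replicate 2, the lowest array, the difference was −0.02. Jun lay at 2.27, 2.40 and 2.33 in controls and at 2.13, 2.38 and 3.60 with prominin. The groups overlapped, and the difference of 0.37 (SE 0.57, limma adjusted p = 0.944) became −0.08 without prominin 108 h replicate 3.

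Junb lay at 3.19, 2.29 and 5.07 in 108 h controls and at 1.48, 2.31 and 2.16 in prominin cultures. Only the second prominin array reached into the control range, and the difference was −1.53 (SE 0.83, 95% interval −3.41 to 0.34, limma adjusted p = 0.744). Without control 108 h replicate 3, the highest array, it was −0.76. Egr2 differed by 0.79 (SE 1.12), Dusp1 by 0.67 (SE 2.13), Zfp36 by 0.31 (SE 0.84) and Nr4a1 by 0.00, all with overlapping groups. Egr2 was at −0.10 without prominin 108 h replicate 1. Nr4a1 was at −1.79 without that array and at 1.32 without prominin 108 h replicate 3.

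At 108 h 4 of the 7 tested genes were higher and 3 lower in prominin cultures, with a median of 0.31 beside 0.00 over all probes. The median was −0.69 without prominin 108 h replicate 1, where Dusp1 also left the fit for want of values. It was −0.70 without centring, where the median of all probes was −1.07. By limma 0 of the 7 and 0 of the 9155 probes (0%) passed, with 624 probes (6.82%) at an unadjusted p under 0.05. None of the 7 had groups without overlap, beside 15.8% of all probes.

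The change of the prominin difference from 24 h to 108 h was tested as an interaction. Junb had the smallest p of the set, with a difference of 1.27 at 24 h and −1.53 at 108 h and an interaction of −2.80 (SE 1.32, 95% interval −5.76 to 0.16, limma adjusted p = 0.817). Over 18 alternatives it ran from −4.57 to −2.03 (limma adjusted p 0.178 to 0.904). None of the 18 left out an array that measured Junb at 24 h or set its whole-number ratios missing. The range therefore does not show how far the interaction rests on those arrays. Fos had an interaction of 1.32 (SE 1.07) and Egr2 one of 1.58 (SE 1.59). The others lay between −0.77 for Jun and 0.11 for Zfp36. Of the 7 genes 0 passed by limma, as did 0 of all 9155 probes (0%), with 545 probes at an unadjusted p under 0.05.

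**Figure D3:**
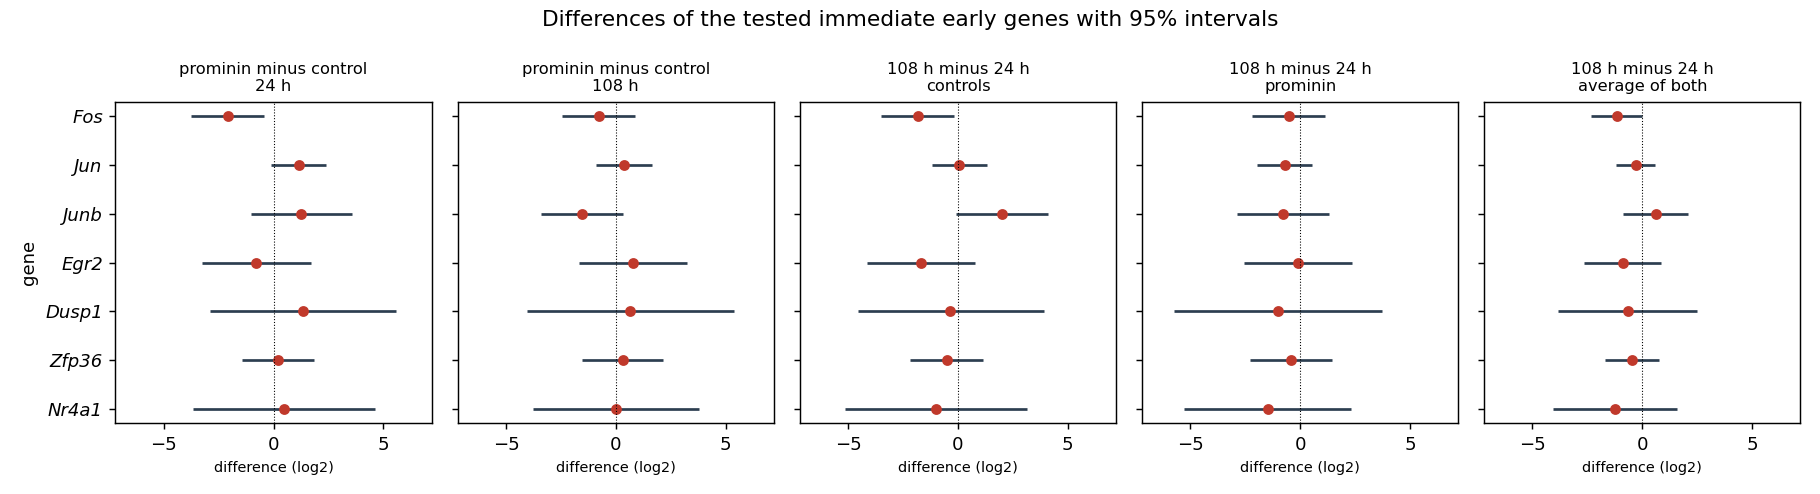
Differences on the log2 scale (horizontal axis, points) with 95% intervals from limma (lines) for the 7 tested immediate early genes, in 5 comparisons. Intervals exclude 0 for Fos alone, at 24 h (−3.75 to −0.43) and with time in controls (−3.49 to −0.17), and none passed after adjustment over 9155 probes.

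Culture time was compared within each kind of culture. In controls Fos lay at 5.69, 5.69 and 6.84 at 24 h and at 4.40, 3.44 and 4.88 at 108 h, without overlap, a difference of −1.83 (SE 0.76, 95% interval −3.49 to −0.17, limma adjusted p = 0.686). This comparison and that of prominin with control at 24 h share the 3 control arrays of 24 h, which held the highest Fos values of the series. Junb went the other way in controls, from 1.87 and 1.15 at 24 h to 3.19, 2.29 and 5.07 at 108 h, a difference of 2.01 (SE 0.93, limma adjusted p = 0.724). Nr4a1 lay lower at 108 h by 1.01 on the log2 scale (SE 1.81) and its groups did not overlap, with 2 values in each. Egr2 differed by −1.68 (SE 1.12) and Jun by 0.07 (SE 0.57). Of the 7 tested genes 2 were higher and 5 lower at 108 h (median −0.52, beside −0.06 over all probes). By limma 0 passed, beside 0 of all probes (0%). Groups did not overlap for 3 of the 7, beside 18.6% of all probes. Junb and Nr4a1, among the 3, had only 2 values in at least 1 group, and fewer values separate more easily.

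In prominin cultures all 7 tested genes were lower at 108 h than at 24 h, beside 4552 of 9155 probes, and none of the differences passed. They ran from −1.48 (SE 1.66) for Nr4a1 to −0.11 (SE 1.12) for Egr2, with Jun at −0.70 (SE 0.57) and Fos at −0.51 (SE 0.76), and the median was −0.70 beside 0.01 over all probes. The signs were not stable: Fos was at 0.25 without prominin 108 h replicate 2, Egr2 at 1.14 without prominin 108 h replicate 3, and Dusp1 at 1.81 and Zfp36 at 0.09 without prominin 24 h replicate 1. None of the 7 had groups without overlap, beside 19.6% of all probes. By limma 2 of the 9155 probes passed in this comparison (0.0218%), and 0 of the 7.

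Averaged over both kinds of culture, Fos differed with time by −1.17 (SE 0.54, limma adjusted p = 0.516), Nr4a1 by −1.24 (SE 1.23), Egr2 by −0.90 (SE 0.79) and Junb by 0.61 (SE 0.66). By limma 5 of 9155 probes passed here (0.0546%), and 0 of the 7 genes. The share of whole-number ratios among measured values was 55.3 to 68.4% on the 24 h arrays and 8.59 to 20.1% at 108 h, so this share moved with culture time, and its part in these differences was not tested.

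Other genes of the early response and its wiring were drawn from lists of known members. Of 50 further immediate early genes 34 were tested, and none passed by limma in any comparison. Averaged over culture kinds, 14 were higher and 20 lower at 108 h (median −0.43, beside −0.03 over all probes). Nr4a2, a relative of Nr4a1, had group means of 2.89, 2.34, 0.37 and −2.23 in 24 h controls, 24 h prominin, 108 h controls and 108 h prominin cultures. With time it differed by −3.54 (SE 0.78, limma adjusted p = 0.187). Gadd45a, a growth arrest and DNA damage gene, differed by −1.65 (SE 0.39, limma adjusted p = 0.187), whereas the stress factor gene Atf3 lay 3.32 higher (SE 1.15, limma adjusted p = 0.412). At 108 h the smallest p values of prominin against control were those of Trib1, a pseudokinase gene (3.28, SE 1.20), the AP-1 gene Jund (−1.39, SE 0.59) and Nr4a2 (−2.60, SE 1.10). At 24 h they were those of the synaptic scaffold gene Homer1 (−2.32, SE 0.69), the G-protein regulator gene Rgs2 (−2.12, SE 1.03) and the clock gene Per1 (1.71, SE 0.90).

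Feedback inhibitors of ERK signalling were lower at 108 h for 12 of 14 probes (12 of 18 listed genes tested), with a median of −0.59 beside −0.03 over all probes, and none passed. Errfi1, which encodes an inhibitor of the EGF receptor, had group means of 2.95 and 4.45 in 24 h control and prominin cultures and of 0.70 and −0.47 at 108 h, a difference of −3.58 (SE 0.66, limma adjusted p = 0.0705). Dusp6, the gene of a cytoplasmic ERK phosphatase, had means of 2.31 and 3.81 at 24 h and of 0.10 and 1.14 at 108 h, a difference of −2.44 (SE 0.64, limma adjusted p = 0.25). Of these inhibitors none passed between prominin and control at either time. The smallest p values were those of the phosphatase genes Dusp16 (2.60, SE 0.93) and Dusp8 (−2.66, SE 1.02) at 24 h, and of 1 probe of Spred1, a RAS pathway inhibitor gene, at 108 h (−2.01, SE 0.80). A second probe of Spred1 gave 1.12 (SE 0.72) there, so the probes of that gene disagreed.

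Of 41 genes of the signalling path to these genes 19 were tested, 9 higher and 10 lower with time (median −0.10), and none passed. Fgfr1, a receptor of basic FGF, differed with time by −2.31 (SE 0.73, limma adjusted p = 0.324) and Srf by −1.16 (SE 0.48, limma adjusted p = 0.455). Egfr lay at −2.77 in 108 h controls and −1.38 in 108 h prominin cultures and differed by 1.40 (SE 0.52, limma adjusted p = 0.717). Of partner and co-regulator genes 10 of 16 were tested, 7 higher and 3 lower with time (median 0.12), and none passed. Rxra, a nuclear receptor that pairs with NR4A1, had group means of 0.37 and −2.01 in 24 h control and prominin cultures and of 2.66 and 3.35 at 108 h, a difference of 3.83 (SE 0.84, limma adjusted p = 0.248). Nab1, a co-repressor of EGR proteins, lay at −0.15 in 108 h controls and −3.25 in 108 h prominin cultures (−3.10, SE 0.93, limma adjusted p = 0.717), and Atf4, a stress-induced bZIP factor, differed by 1.48 (SE 0.49, limma adjusted p = 0.717).

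Genes of mRNA decay were tested with 16 probes, 5 higher and 11 lower with time (median −0.31), among them the AU-rich element binding genes Elavl1 (−3.01, SE 0.92, limma adjusted p = 0.299), Tial1 (−1.64, SE 0.52) and Khsrp (−2.54, SE 0.95). Known AP-1 and EGR targets (11 of 19 tested) were 4 higher and 7 lower, with the heme oxygenase gene Hmox1 at 1.50 (SE 0.50, limma adjusted p = 0.342). Heat shock and chaperone genes (10 of 13 tested) were 8 higher and 2 lower (median 0.56), with Hsph1 at 2.15 (SE 0.69, limma adjusted p = 0.326) and Hspb1 at 1.05 (SE 0.46). None of these lists had a member past the threshold in any of the 6 comparisons, beside the shares of all probes given above.

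The immediate early genes did not move as 1 block over the arrays. Among the 6 measured on at least 10 arrays, Pearson's r between pairs ran from −0.43 (Junb and Egr2, n = 10 arrays) to 0.61 (Dusp1 and Zfp36, n = 10). Fos and Jun had an r of −0.27 over 12 arrays and of 0.14 after group means were removed. These values are descriptive, since the arrays share groups, a reference and a scale. The genes whose levels most resembled the mean of Fos, Jun and Egr2 over the 12 arrays, out of 4137 candidate probes, were Dut (r = 0.879), Mcm2 (0.857), Dipk1b (0.851), Ppfia3 (0.845) and Nab2 (0.843). After removal of group means the closest were Nol7 (0.938), Rab1a (0.926), Fam166c (0.923), Timm44 (0.922) and Dpm1 (0.904). Both sets are the highest of 4137 values over only 12 arrays, where high values arise by selection alone, so no link is read from them. The averaged genes were themselves weakly related, with r of 0.13 for Fos and Egr2 and −0.30 for Jun and Egr2.

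**Figure D4:**
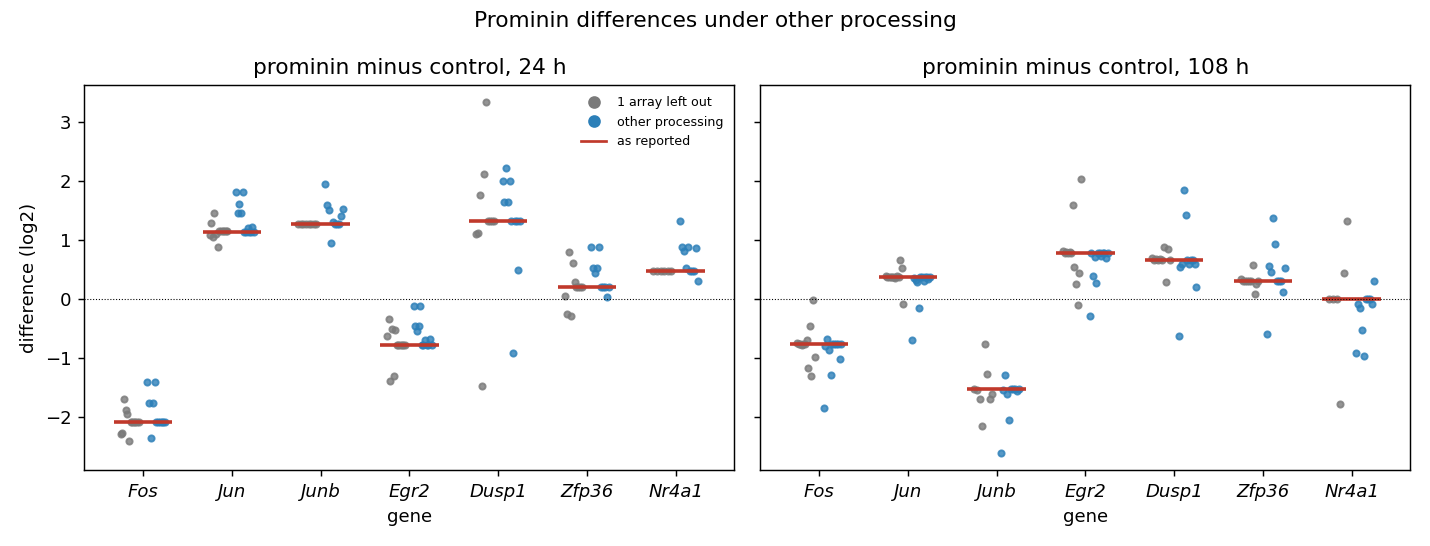
Prominin minus control on the log2 scale (vertical axis) for the 7 tested immediate early genes at 24 h and 108 h, as reported (red bars), with 1 array left out (grey points) and under other processing (blue points). At 24 h Fos stays below 0 (−2.41 to −1.41) and Jun above it (0.89 to 1.82), whereas Dusp1 crosses 0 at both times.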

How the data were processed

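Dual-colour arrays of 12 neurosphere RNAs against 1 embryo reference were analysed from the series' value table. The authors' deposited values were read as log2 ratios of Cy5 to Cy3. How the arrays were scanned and normalized is not given in the sources used here. Exact zeros and the top code were set missing, and the median of the 4532 probes with 12 values was subtracted from every array. The 9155 probes with at least 2 values in each group were fitted in R 4.3.3 by limma 3.58.1, with a mean for each group and 6 contrasts (moderated variance, Benjamini-Hochberg adjustment over all probes of a contrast, threshold 0.05). Probe names came from the platform annotation, updated through gene identifiers. Groups came from the sample titles.

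The genes and lists were chosen with earlier results of these data known. Named are all 10 genes and, from each list, some of the up to 3 genes with the smallest unadjusted p in a comparison (prominin at 24 h or 108 h, average time), and the 5 genes most like Fos, Jun and Egr2. In arrays drawn with known changes for the 108 h comparison (9155 probes), 55 of 100 probes changed by 4 on the log2 scale and 4 of 100 changed by 2 were recovered, with 5 false calls. Every drawn probe had the same spread, taken from the median variance. In the data the within-group SD ran from 0.50 for Jun to 2.76 for Dusp1, so the recovery does not describe each gene. Same-numbered replicates deviated together weakly at most (correlations −0.067 to 0.122 over 18 pairs, 3 of them above 0.1). Differently numbered replicates were not compared. Replicate numbers were not treated as pairs. There were 24 alternatives: other scalings, codes, filters and variance models, a replicate block and each array left out.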

Additional observations from a re-analysis of the deposited data

Results flagged for a closer look

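Junb was singled out because every measured prominin array lay on one side of the control mean at 24 h and on the other side at 108 h. Egr2 also had prominin differences of opposite sign (−0.78 and 0.79), but its arrays fell on both sides of the control mean. At 24 h both measured prominin arrays (1.90 and 3.65) lay above the control mean of 1.51, and at 108 h all 3 prominin arrays (1.48, 2.31 and 2.16) lay below the control mean of 3.52. Put the other way, every control array of 108 h lay above the 24 h control mean, and every prominin array of 108 h lay below the 24 h prominin mean of 2.78. The difference between the 2 effects was −2.80 and did not pass limma's interaction test (adjusted p = 0.817). All 4 Junb values at 24 h were whole-number ratios, and their part in the result was not tested.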

How the results depend on the processing

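None of the 7 tested genes passed limma's threshold in any comparison under any of the alternatives run for it (24 in all). Fosb and Ier2 entered the fit with at least 1 value per group, and Fosb, Egr1 and Ier2 those with codes kept, and none of them passed there. The cause of each move below was not tested. The comparisons are called prominin at 24 h, prominin at 108 h, interaction, time in controls, time in prominin cultures and average time.

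Without centring, the median of the genes was 1.32, −0.70, −2.24, 0.17 and −1.76 in the first 5; Jun (−0.70), Egr2 (−0.28), Dusp1 (−0.63) and Zfp36 (−0.59) turned in prominin at 108 h, Fos (−0.44), Egr2 (−0.18) and Zfp36 (−1.46) in the interaction, Dusp1 (0.35) and Zfp36 (0.17) in time in controls, and 7 probes passed in time in prominin cultures. Centring on every measured probe gave medians of 0.88 (prominin at 24 h), −0.96 (interaction) and −1.05 (time in prominin cultures), and quantile normalization 0.82, −0.97 and −1.39, with Jun (−0.02) and Dusp1 (0.24) turned in time in controls.

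With exact zeros kept, 1, 1 and 3 probes passed in prominin at 24 h, at 108 h and average time, and the medians were −1.12 (interaction), 0.43 (time in controls), −0.36 (time in prominin cultures) and −0.14 (average time). Dusp1 turned in the last 4 comparisons (0.21, 0.23, 0.44 and 0.33), Zfp36 in the last 3 (0.05, 0.89 and 0.47), Egr2 in time in prominin cultures (0.04) and Jun in average time (0.04). With both codes kept, 26, 23, 11, 16 and 26 probes passed in all comparisons but prominin at 108 h. The medians were then 1.09, −0.31, −1.21 and 0.27 in the first 4, and Jun (−0.15) turned in prominin at 108 h, Dusp1 (0.36 and 0.08) in time in controls and average time, and Zfp36 (0.18, 0.24 and 0.21) in the last 3.

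Only probes measured on all 12 arrays (3 of the genes) gave medians of −0.78, 1.32 and −1.68 in prominin at 24 h, interaction and time in controls, with 2, 21 and 34 probes past the threshold in the last 3 comparisons. With whole-number ratios set missing (3 genes left) the medians were −0.69, 1.42, −0.03 and −0.33 in prominin at 24 h, interaction and time in controls and in prominin cultures, with 3, 13 and 29 probes in the last 3. Dusp1 turned in all but prominin at 108 h (−0.91, 1.50, 0.08, 1.57 and 0.82) and Jun in time in controls (−0.03). The filter of at least 1 value gave a median of 0.00 in prominin at 108 h and 2 probes in average time. Probes averaged to genes gave 1 gene in prominin at 24 h and 1 in time in prominin cultures. Array weights gave an interaction median of 0.09, Dusp1 at 0.10 there, and 16 probes in average time.

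With the replicate block the interaction median was 0.01, Nr4a1 turned at 108 h (0.31) and in the interaction (0.01), and 2 probes passed in average time; it changed no other call of the genes.

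With 1 array left out, 0 to 1 probe passed in prominin at 24 h, 1 to 3 in time in prominin cultures and 2 to 9 in average time (9 without control 24 h replicate 1 and 8 without prominin 24 h replicate 1, against 5 with all arrays). The medians, partly over fewer genes, were −0.39 to 0.81, −0.69 to 0.46, −0.48 to 0.86, −1.0 to −0.29 and, in average time, −1.0 to −0.34. Dusp1 ran from −1.47 to 3.34 in prominin at 24 h, −2.67 to 2.14 in the interaction, −0.56 to 0.10, −3.00 to 1.81 and −1.66 to 0.74 in the last 3. Zfp36 ran from −0.29 to 0.80, −0.49 to 0.60, −0.97 to 0.08 and −0.82 to 0.09 in prominin at 24 h, interaction, time in controls and in prominin cultures. Jun ran from −0.08 to 0.66 (prominin at 108 h) and −0.02 to 0.22 (time in controls), Egr2 from −0.10 to 2.04 (prominin at 108 h) and −1.0 to 1.14 (time in prominin cultures), Fos from −1.05 to 0.25 there, and Nr4a1 from −1.79 to 1.32 (prominin at 108 h) and −2.26 to 0.85 (interaction).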
